A study of Mus musculus with 6 samples.

Results

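Sprouty and Spred proteins, the MAP kinase phosphatases and the PEA3 factors are induced by signaling through ERK, the kinase at the end of the RAS, RAF and MEK cascade, and most of them act back on it. SPRY1, SPRY2 and SPRY4 restrain the cascade below receptor tyrosine kinases, SPRED1 and SPRED2 bring the RAS GTPase-activating protein neurofibromin to the membrane, DUSP4 and DUSP6 remove phosphate from MAP kinases, and ETV1, ETV4 and ETV5 are the ETS family transcription factors of the PEA3 group. In germ cells, signals of this kind come through receptors such as KIT and the FGF receptors, and *Etv5* is known for its part in the self-renewal of spermatogonial stem cells after birth.

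These 10 genes were studied in sorted primordial germ cells (PGCs) of male E13.5 embryos, and all 10 had a row among the 23837 named genes of the arrays. They were chosen by gene family after a list of ERK feedback genes had been seen with higher signals in the Fancg-/- group on these same arrays, so that their differences between the groups are given here as a description, with no test. *Spry4* and *Etv4* also stand in the study's own list of genes picked on these samples. The 3 Fancg-/- samples came from og2.fvb.fancg -/- embryos, which lack the Fanconi anemia core complex gene *Fancg*, and the 3 control samples from og2.fvb.fancg +/+ embryos (WT). Both groups carry the OG2 transgene, in which the distal enhancer of *Oct3/4* drives EGFP, and cells were sorted on its fluorescence. Each sample was a pool of 10000 cells from at least 5 embryos, and 500 pg of RNA was amplified for an Affymetrix Mouse Gene 2.0 ST array of 1 colour. The gene was disrupted in the germ line with a *Pgk-hygromycin* cassette, so that somatic cells of these gonads carried the mutation too, and embryos of both groups came from matings of heterozygous mice.

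The authors deposited log2 signals made by RMA, and values below are on that scale, where a difference of 1 is a doubling. The targeted gene *Fancg* read 6.38, 6.65 and 6.87 in the samples labelled Fancg-/-, against 6.07, 5.95 and 6.37 in WT samples. It was thus not lower but higher under its label, by 0.51 and with groups that did not overlap. None of the sources used here says where the *Fancg* probes lie relative to the deleted part. The *Fancg* signal therefore does not check the labels, and each direction below rests on them. The median signal per array lay between 4.73 and 4.79 over the named genes. None of 8 germ cell markers lay below the median of all genes, with *Dppa3* at 12.03 ± 0.01 and *Dazl* at 11.68 ± 0.04 in samples labelled Fancg-/- and 12.13 ± 0.10 and 11.78 ± 0.03 in WT samples (SD, n = 3 each). No gene was called by limma, the linear model fitted to all named genes with Benjamini-Hochberg adjustment at 0.05, which is 0% of those tested and 0 of the 10 genes. At an unadjusted p under 0.05 there were 12.4% of all genes, 6.23% higher and 6.17% lower in samples labelled Fancg-/-. An exact two-sided permutation test cannot give a p below 0.1 with 3 samples against 3.

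Sequence upstream of the genes was read from RefSeq windows of 300 bases (assembly GRCm38.p6, 250 bases before to 50 after a gene's start), of which 9 matched 7 of the genes, with 2 each for *Etv1* and *Etv5* and none matched for *Spry4*, *Dusp4* and *Etv4*. The windows were searched on both strands for set forms of the sites of factors known to act at the end of the ERK cascade. These were CCGGAA, a strict form of the ETS site called the ETS core here, the AP-1 site TGANTCA and the CArG box of serum response factor. For Capicua, a repressor of PEA3 genes that ERK signaling inactivates, only the octamers TGAATGAA and TGAATGGA were searched. The 2 octamers share their first 6 letters. The ETS core was in 1 of the 9 windows, that of *Spry2*, and in 14.9% of all 32851 windows. The AP-1 site, these 2 Capicua octamers and the CArG box were in none of the 9, and in 7.81%, 2.47% and 1.63% of all windows. These matches describe letters in a short window and say nothing of binding. Other forms of the ETS and Capicua sites were not searched, so a window without a match may hold one. The stretch of *Spry2* that holds the ETS core (in capitals) is shown. Beside it, as examples without a match to the forms searched, stand the 250 bases before the start of the phosphatase gene *Dusp6*. The 250 bases before the farther upstream start of *Etv5*, a gene whose groups did not overlap, are a further such example.
Spry2, chr14:105896775-105896804, minus strand, bases 16 to 45 from the start: gaagggaggtcatctatcCCGGAAtccggg
Dusp6, chr10:99262981-99263230, plus strand: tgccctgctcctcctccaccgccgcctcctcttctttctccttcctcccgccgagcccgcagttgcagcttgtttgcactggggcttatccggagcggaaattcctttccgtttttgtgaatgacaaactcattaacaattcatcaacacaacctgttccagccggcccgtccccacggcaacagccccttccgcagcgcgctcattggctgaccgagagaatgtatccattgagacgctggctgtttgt
Etv5, chr16:22439571-22439820, minus strand: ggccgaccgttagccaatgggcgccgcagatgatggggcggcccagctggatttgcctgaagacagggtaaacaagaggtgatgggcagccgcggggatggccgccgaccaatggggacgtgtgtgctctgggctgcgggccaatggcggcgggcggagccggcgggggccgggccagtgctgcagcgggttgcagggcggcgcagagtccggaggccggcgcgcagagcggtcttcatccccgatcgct
There were 16 CpG in the stretch of *Dusp6* and 27 in that of *Etv5*.

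None of the 10 genes was dim, each having a mean signal brighter than that of 71.7% to 99.3% of genes, which describes brightness on the array and not the amount of RNA. Every one of the 10 had the higher mean in samples labelled Fancg-/-, as did 52.9% of all genes. The differences ran from 0.06 to 0.71 with a median of 0.21, against a median of 0.01 over all genes. The groups did not overlap in 4 of the 10 genes, namely *Spry4*, *Etv4*, *Dusp4* and *Etv5*, each higher in all 3 samples labelled Fancg-/-, and 9.45% of all genes had such groups in that direction. Since this contrast chose the genes, nothing is read from these counts. In bulk samples, fewer cells that express a gene and less RNA per cell cannot be told apart.

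**Figure D1:**
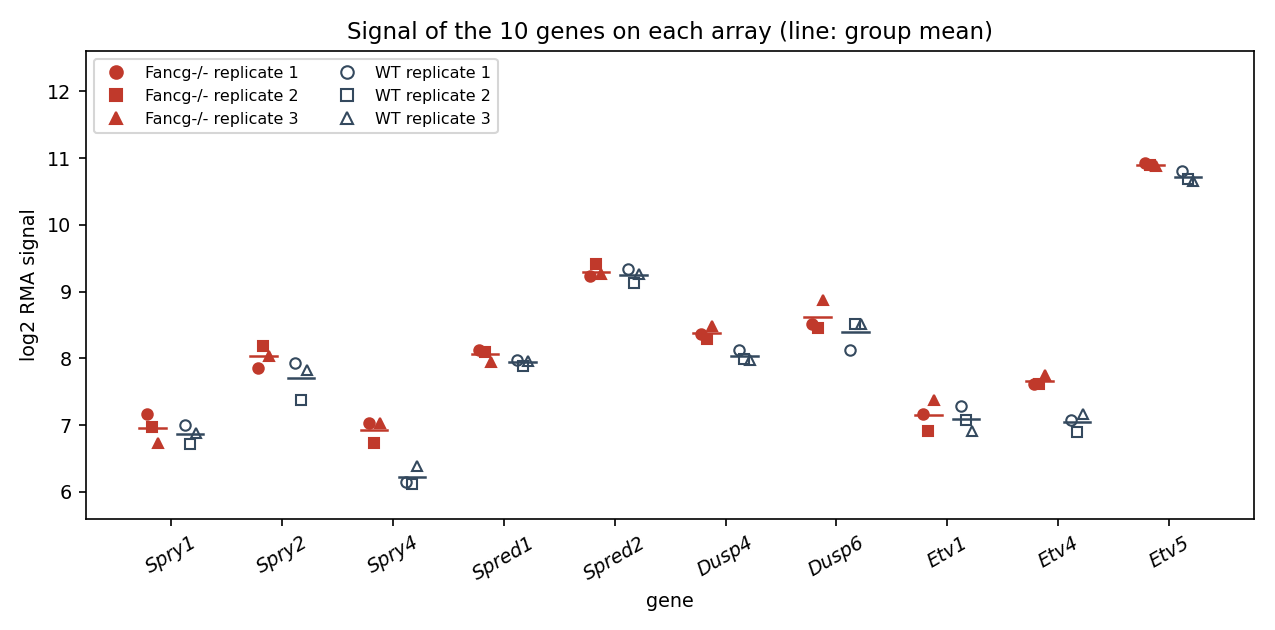
Log2 RMA signal of each of the 10 genes on each of the 6 arrays, with the 3 samples labelled Fancg-/- (filled) left of the 3 WT samples (open) and a line at each group mean. The groups lie apart in *Spry4*, *Dusp4*, *Etv4* and *Etv5* and overlap in the other genes.

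Among the Sprouty genes the difference was unequal. *Spry4* read 7.03, 6.73 and 7.03 in samples labelled Fancg-/-, against 6.15, 6.12 and 6.38 in WT samples. This was the widest difference of the 10 genes, at 0.71 (standard error 0.12, from limma here and below), or a fold of 1.64, and a gap of 0.35 separated the lowest sample labelled Fancg-/- from the highest WT sample. *Spry2*, whose protein is the best known Sprouty inhibitor of FGF signaling, read 7.86, 8.19 and 8.04 in samples labelled Fancg-/-, against 7.93, 7.38 and 7.83 in WT samples. Its groups overlapped, since WT replicate 1 lay above Fancg-/- replicate 1, and its difference of 0.32 (standard error 0.16) was 0.15 without WT replicate 2, the lowest sample. *Spry1*, which in mice is required to restrain GDNF and RET signaling in the forming kidney, read 7.16, 6.97 and 6.73 in samples labelled Fancg-/-, against 7.00, 6.72 and 6.88 in WT samples. Here the samples were mixed, and the difference of 0.08 (standard error 0.13) was smaller than its own error and was -0.02 without Fancg-/- replicate 1.

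Both Spred genes had small differences. *Spred1*, mutated in Legius syndrome in humans, read 8.12, 8.10 and 7.95 in samples labelled Fancg-/-, against 7.97, 7.88 and 7.96 in WT samples, a difference of 0.12 (standard error 0.09). Only Fancg-/- replicate 3 fell among the WT samples. *Spred2* read 9.23, 9.41 and 9.27 in samples labelled Fancg-/-, against 9.34, 9.13 and 9.27 in WT samples. Its difference of 0.06 (standard error 0.10) was the smallest of the 10 and was -0.003 without WT replicate 2.

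Of the phosphatase genes, *Dusp4*, whose protein acts in the nucleus, read 8.36, 8.29 and 8.49 in samples labelled Fancg-/-, against 8.12, 7.99 and 7.97 in WT samples. The groups lay 0.17 apart at their closest and differed by 0.36 (standard error 0.10), a fold of 1.28. *Dusp6*, whose protein is the cytoplasmic phosphatase specific for ERK, read 8.52, 8.46 and 8.88 in samples labelled Fancg-/-, against 8.13, 8.51 and 8.51 in WT samples. Its groups overlapped, with WT replicate 1 low and Fancg-/- replicate 3 high, and its difference of 0.24 (standard error 0.15) was 0.11 without either of these samples.

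Of the PEA3 factors, *Etv4* read 7.61, 7.61 and 7.75 in samples labelled Fancg-/-, against 7.07, 6.89 and 7.16 in WT samples. The SD was 0.08 in samples labelled Fancg-/- and 0.14 in WT samples (n = 3 each), and the groups lay 0.45 apart at their closest, the widest gap of the 10 genes, with a difference of 0.61 (standard error 0.10) or a fold of 1.53. *Etv5*, the brightest of the 10 on the array, read 10.92, 10.89 and 10.88 in samples labelled Fancg-/-, against 10.80, 10.69 and 10.65 in WT samples. Its groups did not overlap either, but the difference was small, at 0.18 (standard error 0.09), a fold of 1.13. *Etv1* read 7.17, 6.91 and 7.38 in samples labelled Fancg-/-, against 7.29, 7.07 and 6.91 in WT samples. The samples of the 2 groups were mixed, and the difference of 0.06 (standard error 0.15) was -0.05 without Fancg-/- replicate 3 and -0.03 without WT replicate 3.

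**Figure D2:**
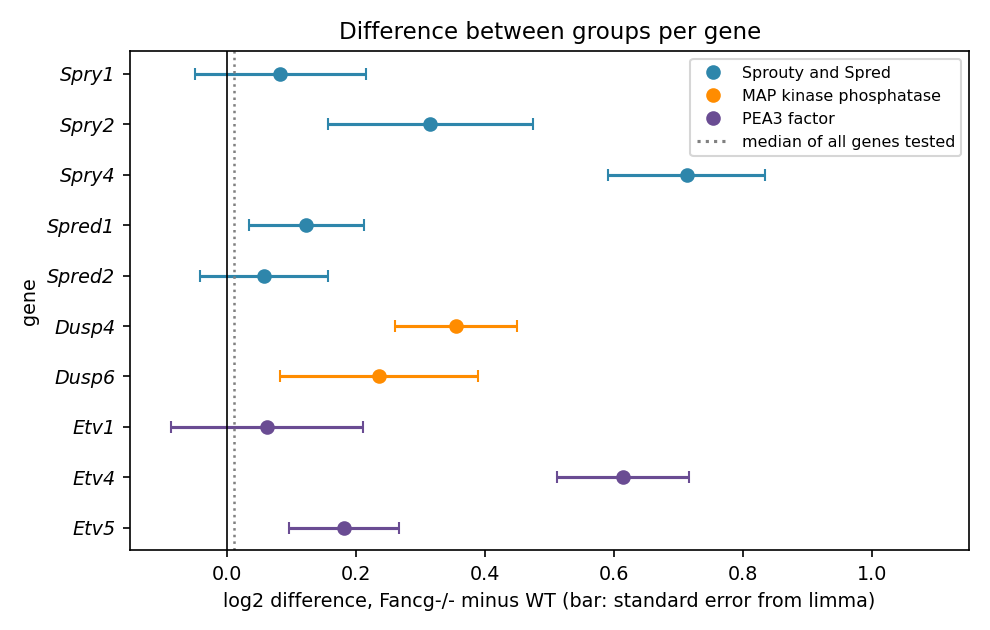
Difference in log2 signal, Fancg-/- minus WT, for each of the 10 genes, coloured by family, with the standard error from limma as a bar and the median of all genes tested as a dotted line. *Spry4* and *Etv4* lie near 0.71 and 0.61, while *Spry1*, *Spred2* and *Etv1* lie within 1 standard error of 0.

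The Sprouty, phosphatase and PEA3 genes each included genes with groups that lay apart and genes whose groups overlapped, while both Spred genes overlapped. Whether the members of a family differ from one another was not tested. The highest value of each of the 10 genes was in a sample labelled Fancg-/-, in replicate 1 for 4 genes, replicate 2 for 2 and replicate 3 for 4. The lowest value was in WT replicate 2 for 6 genes, WT replicate 3 for 2, WT replicate 1 for 1 and Fancg-/- replicate 2 for 1. Since this contrast chose the genes, nothing is read from these positions, and their share over all genes was not counted. The mean deviation of the 10 genes from their mean over all arrays was 0.14, 0.10 and 0.18 in samples labelled Fancg-/-, against -0.08, -0.22 and -0.11 in WT samples. WT replicate 2 was thus the lowest array over the 10 genes, and without it their median difference was 0.16.

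The mean profile of the 10 genes over the 6 arrays was most closely followed, among 15890 other genes above the dimmest 25%, by *Nkx2-9*, *Hhex*, *Gab2*, *Prss40* and *Slc39a14*, with Pearson's r from 0.998 to 0.991. *Gab2* encodes a docking protein of receptor tyrosine kinases. All these points share the difference between the groups, and 107 genes had an r above 0.95.

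Sorted PGCs can hold some somatic cells, and markers of these differed between the same samples. All 8 endothelial markers had a mean that was higher in samples labelled Fancg-/-, 5 of them at an unadjusted p under 0.05 from limma. Their summed linear signal was 1034 to 1376 in samples labelled Fancg-/- and 857 to 1122 in WT samples, and the mean of their log2 values was 5.23, 5.70 and 5.48 in samples labelled Fancg-/-, against 5.38, 4.90 and 4.91 in WT samples. Most of that sum was *Pecam1*, at 9.92 ± 0.19 in samples labelled Fancg-/- and 9.54 ± 0.16 in WT samples (SD, n = 3 each), which PGCs are known to express themselves. Of the other 7 markers, *Emcn*, *Esam*, *Sox18* and *Tie1* lay below the median of all genes, and *Emcn* averaged 3.42 in samples labelled Fancg-/- and 3.31 in WT samples. Endothelial cells are known to express Sprouty genes. With the mean of these markers as a covariate, a fit added after the data were seen, the median difference of the 10 genes was 0.12 instead of 0.21. In that fit *Spry2* had 0.04 and *Spred2* -0.08, while *Spry4* had 0.87, *Etv4* 0.59, *Dusp6* 0.44 and *Dusp4* 0.31.

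Markers of gonadal somatic cells had lower signals in samples labelled Fancg-/-. The 5 measured fetal Leydig cell markers were all lower, each with an unadjusted limma p under 0.05, with a summed linear signal of 86.8 to 152 in samples labelled Fancg-/- and 308 to 480 in WT samples. Sertoli cell markers had a lower mean in 7 of 8, none at an unadjusted p under 0.05, with sums of 1154 to 1657 in samples labelled Fancg-/- and 1947 to 2280 in WT samples, and stroma markers in 7 of 8 as well, 4 of them at that p, with 342 to 414 in samples labelled Fancg-/- and 377 to 516 in WT samples. The mean log2 value differed between the groups by -1.71 for Leydig, -0.4 for Sertoli, -0.27 for stroma and 0.4 for endothelial markers. A joint mean of these markers thus mixes opposite directions and also follows the group label, from which 6 arrays cannot separate it. With the mean of the Sertoli, Leydig, endothelial and stroma markers as a covariate, the median difference of the 10 genes was 0.06. The genes then spread more widely, with 1.09 for *Spry4*, 0.93 for *Dusp6* and 0.75 for *Etv4*, 0.36 for *Dusp4*, 0.03 for *Etv5*, and -0.14 for *Spred2* and -0.26 for *Spry1*. Germ cell markers, 2 of 8 (*Tfap2c* and *Nanos3*) higher at that p, summed to 11210 to 11370 in samples labelled Fancg-/- and 11520 to 11880 in WT samples. Their mean log2 value went the other way, with a difference of 0.11, and 3 of the 8 had a difference above 0. Macrophage markers were dim, 4 of 8 among the dimmest 25% of genes, with sums of 164 to 181 in samples labelled Fancg-/- and 166 to 180 in WT samples. The 7 measured erythroid markers summed to 101 to 1453 in samples labelled Fancg-/- and 128 to 529 in WT samples, the globin gene *Hbb-y* reading 10.33, 8.38 and 3.77 in samples labelled Fancg-/-, against 8.63, 8.56 and 5.19 in WT samples. The part of these cells in the differences of the 10 genes was not tested.

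**Figure D3:**
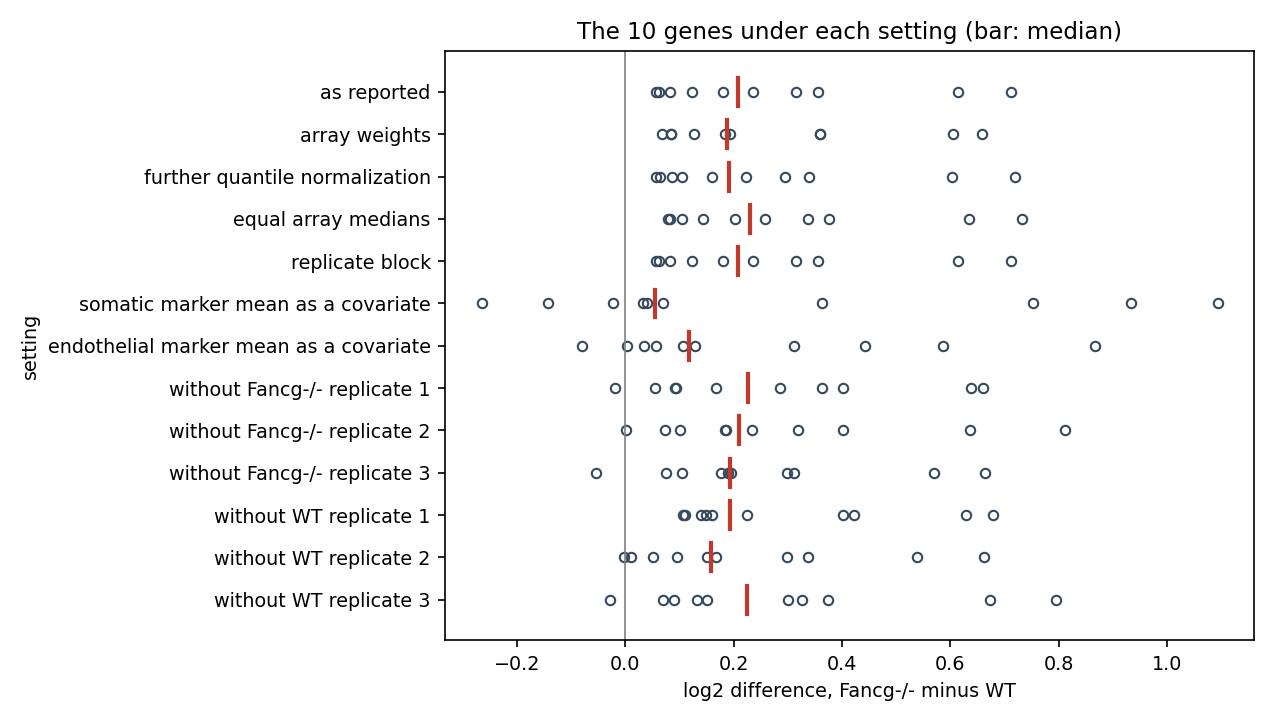
Log2 difference, Fancg-/- minus WT, of the 10 genes (circles) and their median (bar) as reported, under other normalizations and fits, and without each sample. The median lies between 0.16 and 0.23 except with marker means as covariates, where it is 0.06 and 0.12.

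The rest of the pathway was described by lists of known roles, none of whose genes was called over all genes. Beside the counts below, 52.9% of all genes had a difference above 0, and 9.45% had higher groups without overlap. Lower groups without overlap were found in 2014 of the 23837 genes. At an unadjusted p under 0.05 from limma, 6.23% of all genes were higher and 6.17% lower. Among the relatives of the 10 genes, *Spred3* had a difference of 0.01 and *Il17rd*, which encodes the FGF antagonist Sef, had -0.22 (standard error 0.11), with 7.40, 7.58 and 7.25 in samples labelled Fancg-/- and 7.73, 7.65 and 7.52 in WT samples, groups that overlapped. Of the 8 other MAP kinase phosphatases, 6 had a difference above 0 and the median was 0.12, and 3 higher but no lower genes had an unadjusted p under 0.05. *Dusp2*, a nuclear phosphatase of lymphocytes, read 5.54, 5.29 and 5.59 in samples labelled Fancg-/-, against 5.14, 5.08 and 5.00 in WT samples. *Dusp7*, the closest relative of *Dusp6*, read 7.50, 7.57 and 7.39 in samples labelled Fancg-/-, against 7.28, 6.97 and 7.18 in WT samples. *Dusp5*, whose protein is specific for ERK in the nucleus, read 6.71, 6.78 and 6.87 in samples labelled Fancg-/-, against 6.27, 6.50 and 6.65 in WT samples. These 3 genes had groups that did not overlap and differences of 0.40, 0.35 and 0.32, with adjusted p = 0.219, 0.28 and 0.345 from limma. *Dusp8*, which prefers the stress kinases JNK and p38, had 0.18 (standard error 0.12) with groups that overlapped.

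The 23 other ETS factors had a median of 0.03, and 1 higher and 1 lower gene had an unadjusted p under 0.05. *Spic* had -0.30 (adjusted p = 0.292 from limma) and *Spib* 0.43 (adjusted p = 0.349 from limma), both known from blood cells and both dim here, at a mean of 3.68 in samples labelled Fancg-/- and 3.98 in WT samples for *Spic*, and at 3.25 in samples labelled Fancg-/- and 2.82 in WT samples for *Spib*. *Etv2* had 0.33 and *Elf4* -0.49, with groups that overlapped. The ETS repressor gene *Erf*, whose protein ERK exports from the nucleus, averaged 8.77 ± 0.11 in samples labelled Fancg-/- and 8.81 ± 0.21 in WT samples (SD, n = 3 each), and was named after its values were seen. The Capicua gene *Cic* averaged 8.94 ± 0.11 in samples labelled Fancg-/- and 9.00 ± 0.08 in WT samples, a difference of -0.06 (standard error 0.10), and its cofactor genes *Atxn1* and *Atxn1l* had 0.05 and -0.24.

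Other genes that ERK is known to raise were not shifted alike. Of 14 such genes, 5 had a difference above 0, the median was -0.06, and 1, higher, had an unadjusted p under 0.05. That gene was *Epha2*, an Eph receptor, which read 6.76, 7.39 and 6.97 in samples labelled Fancg-/-, against 6.20, 5.93 and 6.34 in WT samples. Its groups did not overlap, and its difference of 0.88 (standard error 0.18, adjusted p = 0.166 from limma) exceeded that of any of the 10 genes. *Epha2* also stands in the list that the study picked on these samples. *Epha4* had 0.18, *Fosl1* 0.20 and *Egr3* -0.19, each with a standard error of 0.10 to 0.13. The immediate-early genes *Egr1* and *Fos*, named after their values were seen, varied widely within both groups. *Egr1* read 8.86, 8.37 and 8.00 in samples labelled Fancg-/-, against 8.06, 9.27 and 9.14 in WT samples, and *Fos* 8.83, 8.09 and 7.66 in samples labelled Fancg-/-, against 7.75, 8.63 and 8.72 in WT samples. The cyclin D1 gene *Ccnd1* and *Phlda1*, also named after their values were seen, had -0.23 (standard error 0.19) and -0.06 (standard error 0.16).

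Upstream, the genes that set the input of the cascade went both ways. Among 16 receptor tyrosine kinases, 1 with a higher and 5 with a lower signal had an unadjusted p under 0.05, with a median of 0.00. *Ret*, the GDNF receptor, read 5.34, 4.83 and 4.66 in samples labelled Fancg-/-, against 5.59, 6.23 and 6.03 in WT samples, so that it differed by -1.01 (standard error 0.21, limma adjusted p = 0.168). *Igf1r*, the receptor of insulin-like growth factors, read 6.19, 5.80 and 5.74 in samples labelled Fancg-/-, against 6.51, 6.88 and 6.76 in WT samples, so that it differed by -0.81 (standard error 0.15, limma adjusted p = 0.158). The insulin receptor gene *Insr* had -0.40 and *Pdgfrb*, a receptor of stromal cells, -0.37, with adjusted p = 0.199 and 0.172 from limma, and in all 4 the groups did not overlap. The one receptor higher at an unadjusted p under 0.05 was *Fgfr1*, named after its values were seen, while 8 of the 16 had a difference above 0. *Fgfr1* read 7.51, 7.48 and 7.48 in samples labelled Fancg-/-, against 7.18, 7.24 and 7.05 in WT samples. It differed by 0.33 (standard error 0.09, limma adjusted p = 0.215). *Kit*, the receptor on which PGC survival depends, averaged 9.47 ± 0.10 in samples labelled Fancg-/- and 9.26 ± 0.16 in WT samples, also named after its values were seen, with groups that overlapped.

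Of 25 genes of the cascade from adaptor to kinase, an unadjusted p under 0.05 was reached by 4 that were higher and 3 that were lower, with a median of 0.08. The RAS exchange factor genes *Sos2* and *Sos1* had -0.36 (adjusted p = 0.208 from limma) and -0.34 (adjusted p = 0.302 from limma). *Map2k1*, which encodes MEK1, had 0.34 and *Rps6ka1*, which encodes the ERK substrate RSK1, had 0.45, both with adjusted p = 0.27 from limma. All 4 had groups that did not overlap. The 9 RAS GTPase-activating protein genes had a median of -0.14, and none was higher at an unadjusted p under 0.05. *Nf1*, which encodes neurofibromin, the partner of the Spred proteins, read 6.15, 5.69 and 5.78 in samples labelled Fancg-/-, against 6.54, 6.92 and 6.93 in WT samples. With -0.92 (standard error 0.16, adjusted p = 0.147 from limma), or a fold of 0.53, it was the gene of these lists with the smallest p outside the 10, and its groups did not overlap. *Rasa1* had -0.14 and *Rasa3* 0.12, with adjusted p = 0.546 and 0.643 from limma.

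**Figure D4:**
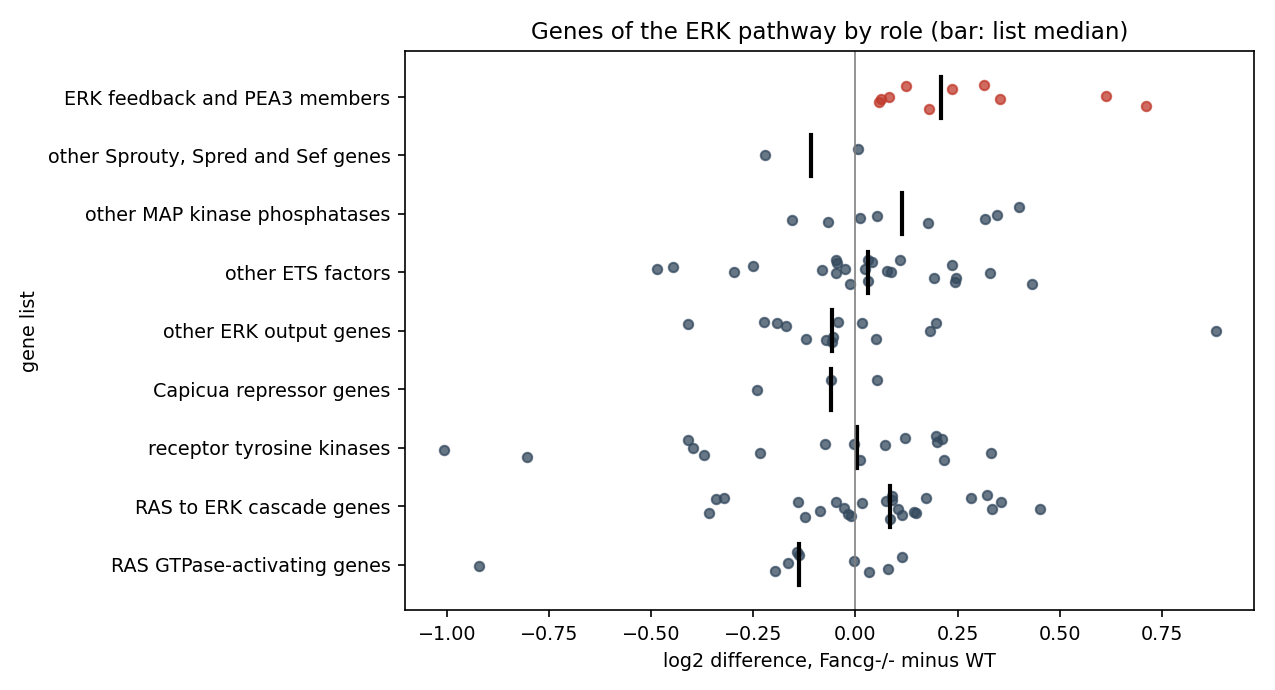
Log2 difference, Fancg-/- minus WT, of each measured gene of the ERK pathway by role, with the 10 genes at the top and a bar at each list's median. The medians of the other lists lie between -0.14 and 0.12, with *Epha2* far to the right and *Ret*, *Nf1* and *Igf1r* far to the left.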

How the data were processed

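PGCs of 3 Fancg-/- and 3 WT samples were measured on Affymetrix Mouse Gene 2.0 ST arrays. The authors deposited log2 values made by RMA, 1 row per Entrez gene, and the submitters' notes name Partek. No source used here gives a version or genome build. RMA pulls arrays to 1 distribution, so values are relative to each array. Arrays have no read depth, and their number limits the precision. Of 24479 rows, 23837 were named through RefSeq (GRCm38.p6) or the platform annotation and fitted with limma 3.58.1 in R 4.3.3 (lmFit, eBayes, no block, Benjamini-Hochberg over all named genes), which was tested on simulated data. The replicates are separate pools by the paper's methods.

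The 10 genes, lists and tests were chosen with earlier results of these data known. Named are all 10 genes, in each other list up to 4 genes with the smallest p, and the 5 genes most like the mean profile, predicted genes and small RNAs left out. Alternatives were the methods' t-test, array weights, a robust prior with an intensity trend, quantile normalization, equal medians, filters on the dimmest 25% and 50% of genes, the replicate number as a block, marker means as covariates and leaving out each sample. *Spry3*, *Insl3* and *Hba-a1* had no named row, and 1 gene that the rule names is not reported here.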

Additional observations from a re-analysis of the deposited data

How the results depend on the processing

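The median difference of the 10 genes, 0.209 as reported, was 0.189 with array weights, 0.191 after a further quantile normalization and 0.23 with equal array medians, and between 0.159 (without WT replicate 2) and 0.227 (without Fancg-/- replicate 1) when a sample was left out. It was 0.055 with the averaged Sertoli, Leydig, endothelial and stroma markers as a covariate, and 0.118 with the endothelial markers alone, added after the data were seen. Both covariates differed in mean between the groups themselves, and the cause was not tested. In the fit with 0.055, *Spry1*, *Spred1* and *Spred2* had differences below 0. Of 120 alternative values of the single genes, 10 moved by more than 1 SD of the replicates, all with a marker covariate. Leaving out 1 of 3 samples cannot move a difference that far, and the replicate number as a block cannot move it at all. That count is thus no measure of how stable the values are. Of the 120 values, 8 lay below 0, those of *Spry1*, *Spred1*, *Spred2* and *Etv1*. Among the genes whose groups did not overlap, the lowest values over these alternatives were 0.658 for *Spry4*, 0.539 for *Etv4*, 0.299 for *Dusp4* and 0.032 for *Etv5*. Since this contrast chose the genes, nothing is read from these values.

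No gene was called by limma under any alternative except without WT replicate 1, where 3 were called (*Cntfr*, *Hsd3b1* and DQ267100, none of the 10), a range of 0 to 3 over the samples left out. The methods' t-test called 0 after adjustment and had 2408 genes at an unadjusted p under 0.05, against 2956 with limma, 1236 with the somatic marker covariate and 2079 to 3189 without 1 sample each. The replicate number as a block gave 2480 such genes and 0 called. Its median of 0.209 had to be the same, since each replicate number holds a sample of both groups. Whether samples with the same number share more than that number is not given. Their deviations from the group means correlated at -0.143, -0.11 and 0.03, against up to 0.145 for samples with unlike numbers. With 3 arrays per group, these values cannot show whether such samples shared litters or a batch.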
